A study of Mus musculus with 12 samples.

Results

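Interferon response genes were followed across 12 arrays of mouse embryoid bodies, the free-floating aggregates in which embryonic stem (ES) cells begin to differentiate. The set was a list of 39 genes with known roles in interferon signalling: sensors of foreign RNA, transcription factors, antiviral effectors, protein modifiers, interferon-inducible GTPases and antigen presentation genes. A gene was measured through a probe set annotated to it alone, and through the brightest such probe set where there was more than 1 (Irf1). Of the 39 genes, 35 had a probe set of their own, out of 19938 such genes on the array. Isg15, Gbp2 and Igtp were read only by probe sets shared with another gene, and Ifi44 is not analysed here. Genes with a mean below the 20th percentile of all genes (log2 6.46) were not tested. That left 31 of the 35 genes among 15950 tested, and Ifit1, Ifit3, Dhx58 and Mx2 have values but no test. Of the 35 genes, 13 had a mean level at or below the 95th percentile (log2 7.06) of 1190 olfactory and vomeronasal receptor genes, which have no known role in embryoid bodies.

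The ES cells were A2lox cells, of mouse strain 129P2/OlaHsd, carrying a transgene that responds to doxycycline (dox). In the knockdown line dox, at 0.5 µg/ml from day 0, switched on microRNAs against Geminin (gene Gmnn), and embryoid bodies were collected on day 4 with dox (3 arrays) and without it (3 arrays). In the overexpression line dox, at 0.5 µg/ml from day 3, switched on Geminin itself. Arrays of that line came from day 5 with dox (2) and without it (2), and from day 4 with dox (1) and without it (1), the day 4 pair being replicate 3. ES cells of both lines had been kept on irradiated mouse fibroblasts, which were removed before the embryoid bodies were formed. Nothing in the labels says that replicates are separate cultures, and every p-value here reflects spread among these samples alone, possibly technical spread. How many clones each line represents is not given in the sources used here.

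Cells that sense double-stranded or otherwise foreign RNA make interferons, which bind their receptors on the same and neighbouring cells and activate complexes of STAT and IRF proteins. Those complexes bind short elements in promoters, the interferon-stimulated response element (ISRE) and the gamma-activated site (GAS), and raise a large set of antiviral and antigen presentation genes. ES cells are known for a weak interferon response, which strengthens as they differentiate. Since the knockdown construct makes microRNAs and the overexpression construct a coding transcript, the comparisons with and without dox ask whether either is accompanied by higher levels of these genes.

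Promoters are shown for 5 genes that had a single promoter entry and were chosen by their values in the results below. Irgm1, Oasl2 and Psmb8 had some of the largest differences with dox in the knockdown line. B2m and Bst2 were called between days or lines. Other such genes, among them Parp9, Usp18 and Ifit2, had no entry or several. RefSeq promoters (GRCm38.p6, 250 bases before to 50 bases after the annotated start, C57BL/6J reference sequence) existed for 31 of the 39 genes, 37 promoters in all. The ISRE core was searched as GAAA followed by any 2 bases and GAAA, and the GAS as TTCNNNGAA, each on both strands. Matches are in capitals, and each sequence is given on the strand of its gene. Irgm1 (chr11:48871371-48871670, minus strand), an interferon-inducible GTPase, held 2 overlapping ISRE core matches close to the start. Oasl2 (chr5:114896684-114896983, plus strand), an oligoadenylate synthetase-like protein, held neither element in this window. Psmb8 (chr17:34197945-34198244, plus strand), a catalytic subunit of the immunoproteasome, held a GAS match. B2m (chr2:122147437-122147736, plus strand), the light chain of MHC class I, held an ISRE core match. Bst2 (chr8:71537423-71537722, minus strand), the virus-retaining membrane protein tetherin, held 2 ISRE core matches and a GAS match that overlap each other.
Irgm1: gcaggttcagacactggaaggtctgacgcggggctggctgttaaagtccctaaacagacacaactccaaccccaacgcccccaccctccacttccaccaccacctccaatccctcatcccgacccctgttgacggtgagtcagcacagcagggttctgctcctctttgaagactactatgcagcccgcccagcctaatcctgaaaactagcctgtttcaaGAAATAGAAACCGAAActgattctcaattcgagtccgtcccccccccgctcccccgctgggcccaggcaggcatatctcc
Oasl2: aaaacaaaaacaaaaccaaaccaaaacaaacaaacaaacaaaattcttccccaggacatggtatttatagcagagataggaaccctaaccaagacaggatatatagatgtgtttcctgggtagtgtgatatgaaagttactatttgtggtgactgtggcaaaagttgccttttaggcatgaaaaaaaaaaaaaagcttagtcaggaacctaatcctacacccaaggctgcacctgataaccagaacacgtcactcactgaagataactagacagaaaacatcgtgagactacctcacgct
Psmb8: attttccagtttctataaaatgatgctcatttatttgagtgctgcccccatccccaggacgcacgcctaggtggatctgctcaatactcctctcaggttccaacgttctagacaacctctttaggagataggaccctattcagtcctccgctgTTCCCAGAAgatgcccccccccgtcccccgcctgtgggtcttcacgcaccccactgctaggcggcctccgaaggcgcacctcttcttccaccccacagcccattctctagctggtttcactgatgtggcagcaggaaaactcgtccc
B2m: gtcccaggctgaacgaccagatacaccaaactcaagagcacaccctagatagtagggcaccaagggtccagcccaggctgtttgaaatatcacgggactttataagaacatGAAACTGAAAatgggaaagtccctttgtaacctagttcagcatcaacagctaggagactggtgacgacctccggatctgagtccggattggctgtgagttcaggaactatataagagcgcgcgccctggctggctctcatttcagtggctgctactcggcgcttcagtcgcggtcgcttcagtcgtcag
Bst2: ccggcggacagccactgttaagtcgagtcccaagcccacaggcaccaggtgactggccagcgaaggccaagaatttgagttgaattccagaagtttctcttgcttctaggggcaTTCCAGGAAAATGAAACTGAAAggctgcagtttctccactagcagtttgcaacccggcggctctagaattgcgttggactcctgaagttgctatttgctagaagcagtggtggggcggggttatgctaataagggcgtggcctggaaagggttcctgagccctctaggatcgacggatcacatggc

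An ISRE core match was present in 17 of the 37 promoters (45.9%), belonging to 16 genes, against 3.44% of all 32851 mouse promoters of this length. A GAS match was present in 10 of the 37 (27%), against 8.3% of all promoters. The genes were listed for their known interferon response, so this share describes the list. Tap1 and Psmb9, genes for a peptide transporter subunit and an immunoproteasome subunit, lie back to back, and their promoter windows overlap by 275 of 300 bases on opposite strands.

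**Figure D1:**
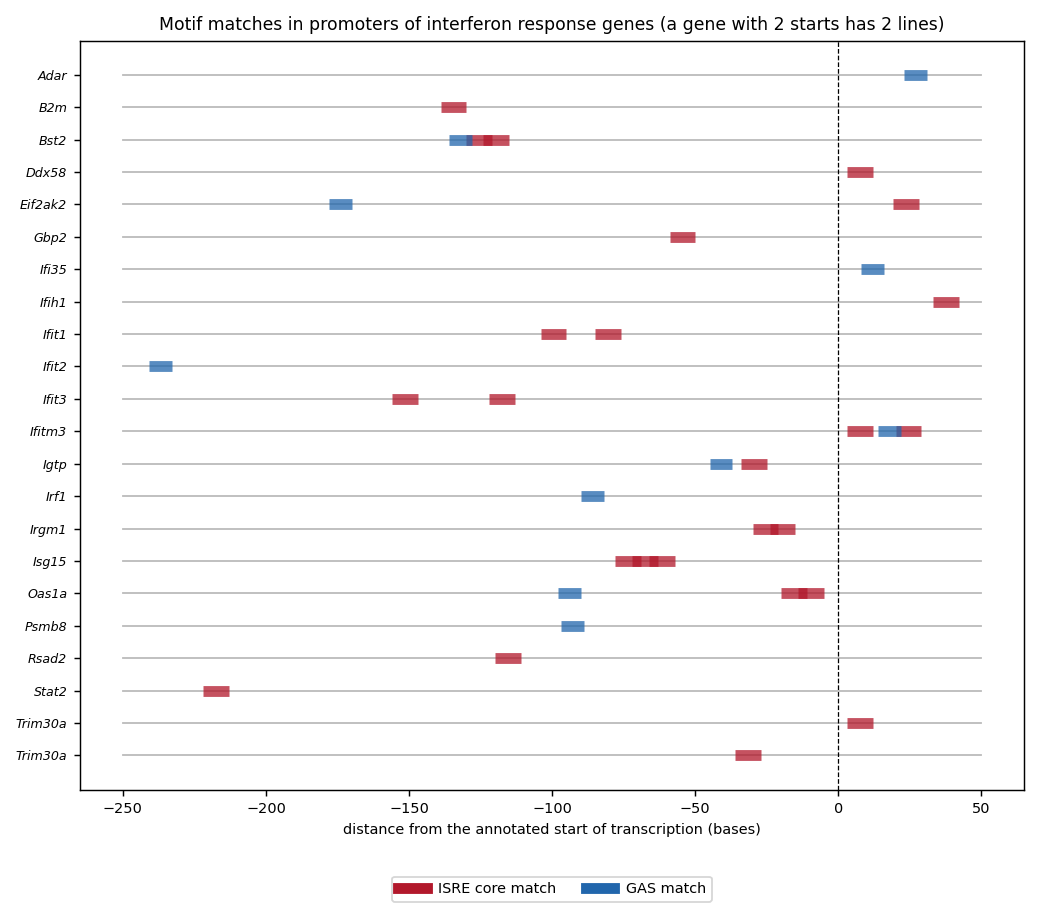
Positions of ISRE core (red) and GAS (blue) matches in the promoters that held at least 1, as distance in bases from the annotated start of transcription (x axis, 0 at the start, marked by the dashed line), 1 line per promoter. Matches lie on either side of the start, and Bst2, Irgm1, Isg15, Oas1a and Ifitm3 hold several close together.

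Levels are log2 intensities after quantile normalization and are compared only within a probe set. Differences are log2 differences from a limma fit of all 12 arrays, given with the standard error (SE), and a gene was called at a Benjamini-Hochberg adjusted p under 0.05 over all 15950 genes. Gmnn stood at 9.63 to 9.74 in the 3 knockdown-line arrays with dox and at 10.05 to 10.33 in the 3 without. In the overexpression line it stood at 10.83 to 11.38 with dox and at 10.15 to 10.29 without dox on day 5, and at 11.04 with and 10.35 without dox on day 4. Its differences were -0.50 ± 0.14 and 0.82 ± 0.14, not called (limma adjusted p = 0.965 and 0.922). Hprt, next to which the transgene of these cells is inserted, rose in both lines (3.81 ± 0.33 and 3.44 ± 0.33; limma adjusted p = 0.00387 and 0.0105) and was the only gene called in either comparison with dox. Its call was lost on fitting either line alone (limma adjusted p = 0.0671 in the knockdown line and 0.0786 in the overexpression line). In the overexpression line it was also lost without either array of day 4, either day 5 array of replicate 1 or the day 5 array with dox of replicate 2 (adjusted p = 0.0866 to 0.264), the difference staying between 3.22 and 3.50 there.

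In the knockdown line, 0 of the 31 tested interferon response genes were called with dox, where 0.00627% of all genes were. Below that threshold, 8 of 31 genes (25.8%) had an unadjusted limma p under 0.05, all 8 higher with dox, against 3.76% of all genes (2.17% higher and 1.59% lower). The count of 8 was 3 without the array with dox of replicate 3. The genes were Irgm1, Oasl2, Parp9, Psmb8, Parp14, Ifit2, Dtx3l and Ifih1, at 1.26-fold to 1.67-fold (limma adjusted p = 0.965 for each). Of the 35 measured genes, 24 were higher and 11 lower, with a median difference of 0.09, against 0.01 over all tested genes. Among the 31 tested, 22 (71%) were higher, against 52.7% of all genes. With the intensities as deposited, 18 of the 35 were higher. In bulk RNA a change in the number of cells of a type and a change in RNA per cell cannot be told apart.

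Among the RNA sensors and their regulators, Ifih1 (MDA5), a sensor of long double-stranded RNA, was singled out after its values were seen. It had 7.41, 6.96 and 7.25 in the arrays with dox of replicates 1, 2 and 3, against 7.02, 6.63 and 6.96 in those without. The groups overlapped, with replicate 2 lowest in each, and the difference was 0.33 ± 0.14 (unadjusted limma p = 0.0394; exact permutation p = 0.3). Without the array of replicate 2 that had no dox it was 0.21. Ddx58 (RIG-I), the sensor of RNA ends, differed by 0.05 ± 0.16. Trim25, a ubiquitin ligase that acts on it, differed by -0.06 ± 0.21. Trim30a, a TRIM protein that in mice dampens inflammatory signalling, differed by -0.10 ± 0.12. Dhx58 (LGP2), a regulator of both sensors, was below the level filter and differed by -0.04.

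All 4 transcription factors were higher with dox, where 52.7% of all tested genes were, and none of the 4 had an unadjusted p under 0.05. Irf1, which responds to interferon gamma and acts on antigen presentation genes, had 9.95, 9.55 and 10.00 with dox, against 9.31, 9.08 and 9.79 without. Each array with dox was above the array of its own number without, and the groups overlapped. The difference was 0.44 ± 0.23 (unadjusted limma p = 0.0805; exact permutation p = 0.2), and 0.29 without the array of replicate 2 that had no dox. A second, dimmer Irf1 probe set differed by 0.11. Stat2 and Irf9, partners in the complex that binds the ISRE, differed by 0.15 ± 0.16 and 0.06 ± 0.13. Irf7, which drives interferon genes themselves, differed by 0.09 ± 0.12.

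The effectors, proteins that bind, cut or edit RNA or act on virus particles, lay on both sides of 0. Of 17 measured, 10 were higher and 7 lower with dox (median 0.01). Oasl2 had 8.29, 7.94 and 8.23 with dox, against 7.68, 7.54 and 7.57 without. All 3 arrays with dox lay above all 3 without, and the difference was 0.55 ± 0.15, or 1.47-fold (unadjusted limma p = 0.00359; exact two-sided permutation p = 0.1, the smallest that 3 arrays against 3 can give). Ifit2, which binds RNA and restrains translation, had 7.13, 6.82 and 7.20 with dox, against 6.63, 6.37 and 6.65 without. The groups did not overlap, and the difference was 0.50 ± 0.18, or 1.41-fold (unadjusted limma p = 0.0180; exact permutation p = 0.1). The mean level of Ifit2 was within the range of the receptor genes.

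The oligoadenylate synthetases related to Oasl2 had smaller differences. Oas1a, which makes the oligoadenylate that activates RNase L, had 7.23, 6.70 and 7.11 with dox, against 7.04, 6.46 and 7.01 without, a difference of 0.18 ± 0.17. Oas2 had 6.86, 7.13 and 6.88 with dox, against 6.81, 7.12 and 7.08 without, a difference of -0.04 ± 0.14. For both genes the groups overlapped over most of their range. Rsad2 (viperin, -0.08 ± 0.11) and its neighbour Cmpk2, a nucleotide kinase (0.01 ± 0.09), showed intervals that include 0. Adar, the enzyme that edits adenosine in double-stranded RNA and 1 of the brightest 4 genes of the list, had 9.63, 9.70 and 9.71 with dox, against 9.58, 9.79 and 9.64 without, a difference of 0.01 ± 0.14. Ifitm3, which blocks virus entry, had 10.45, 10.53 and 10.56 with dox, against 10.52, 10.32 and 10.51 without, a difference of 0.06 ± 0.19. Neither bright gene separated the groups. Eif2ak2 (PKR), the kinase switched on by double-stranded RNA, differed by 0.12 ± 0.15, and Zbp1, a sensor of left-handed nucleic acid helices, by -0.07 ± 0.12. Xaf1, which binds an inhibitor of cell death, had the largest difference downward among tested genes (-0.40 ± 0.37), which was -0.01 without the array of replicate 3 that had no dox.

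The protein modifiers were higher in 4 of 4 measured cases (median 0.49), 3 of them at an unadjusted p under 0.05, and those 3 are neighbours in the genome (RefSeq gene order, GRCm38.p6): Parp14, Dtx3l and Parp9. Of all tested genes, 52.7% were higher and 3.76% had an unadjusted limma p under 0.05. Parp9 and Dtx3l form a complex that joins ADP-ribosylation with ubiquitin transfer. Parp9 had 9.24, 8.91 and 9.14 with dox, against 8.56, 8.48 and 8.64 without. The groups did not overlap, and the difference was 0.53 ± 0.12, or 1.45-fold, the smallest unadjusted limma p among the tested genes of the list (0.00127; exact permutation p = 0.1). Parp14, a mono-ADP-ribosyltransferase, had 7.18, 7.25 and 7.54 with dox, against 6.68, 7.13 and 6.66 without, also without overlap (0.50 ± 0.18; unadjusted limma p = 0.0199; exact permutation p = 0.1). Dtx3l, named with its neighbours after its values were seen, had 9.00, 8.60 and 9.13 with dox, against 8.48, 8.14 and 8.67 without. Its groups overlapped, with replicate 2 lowest in each, and the difference was 0.48 ± 0.16 (unadjusted limma p = 0.0112; exact permutation p = 0.2). Usp18, which removes the ubiquitin-like protein Isg15 from other proteins, differed by 0.09 ± 0.10.

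Irgm1 had the largest difference of the tested genes. It had 9.24, 8.30 and 9.00 with dox, against 8.62, 7.52 and 8.17 without. Replicate 2 was lowest in each group and the groups overlapped, while each array with dox stood above the array of its own number without. The difference was 0.74 ± 0.27, or 1.67-fold (unadjusted limma p = 0.0213; exact permutation p = 0.2), and it was 0.45 without the array of replicate 2 that had no dox. The probe set shared by Igtp and Irgm2, GTPases of the same family, differed by 0.39. The probe set shared by Gbp2 and Gbp2b, guanylate-binding proteins, also differed by 0.39, and the one shared by Isg15 and Gm9706 by 0.05.

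Antigen presentation genes split. Psmb8 had 8.47, 8.05 and 8.38 with dox, against 8.02, 7.66 and 7.70 without. The groups did not overlap, by a narrow margin, and the difference was 0.51 ± 0.16, or 1.42-fold (unadjusted limma p = 0.00816; exact permutation p = 0.1). Tap1 had 8.04, 8.09 and 8.36 with dox, against 7.79, 8.04 and 7.82 without. The lowest array with dox and the highest without were nearly level, and the difference was 0.28 ± 0.14. Psmb9, which shares its promoter region with Tap1, differed by 0.03 ± 0.14. B2m had 10.71, 10.20 and 10.21 with dox, against 10.97, 10.68 and 10.34 without, lower in each array than in the array of its own number (-0.29 ± 0.17).

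**Figure D2:**
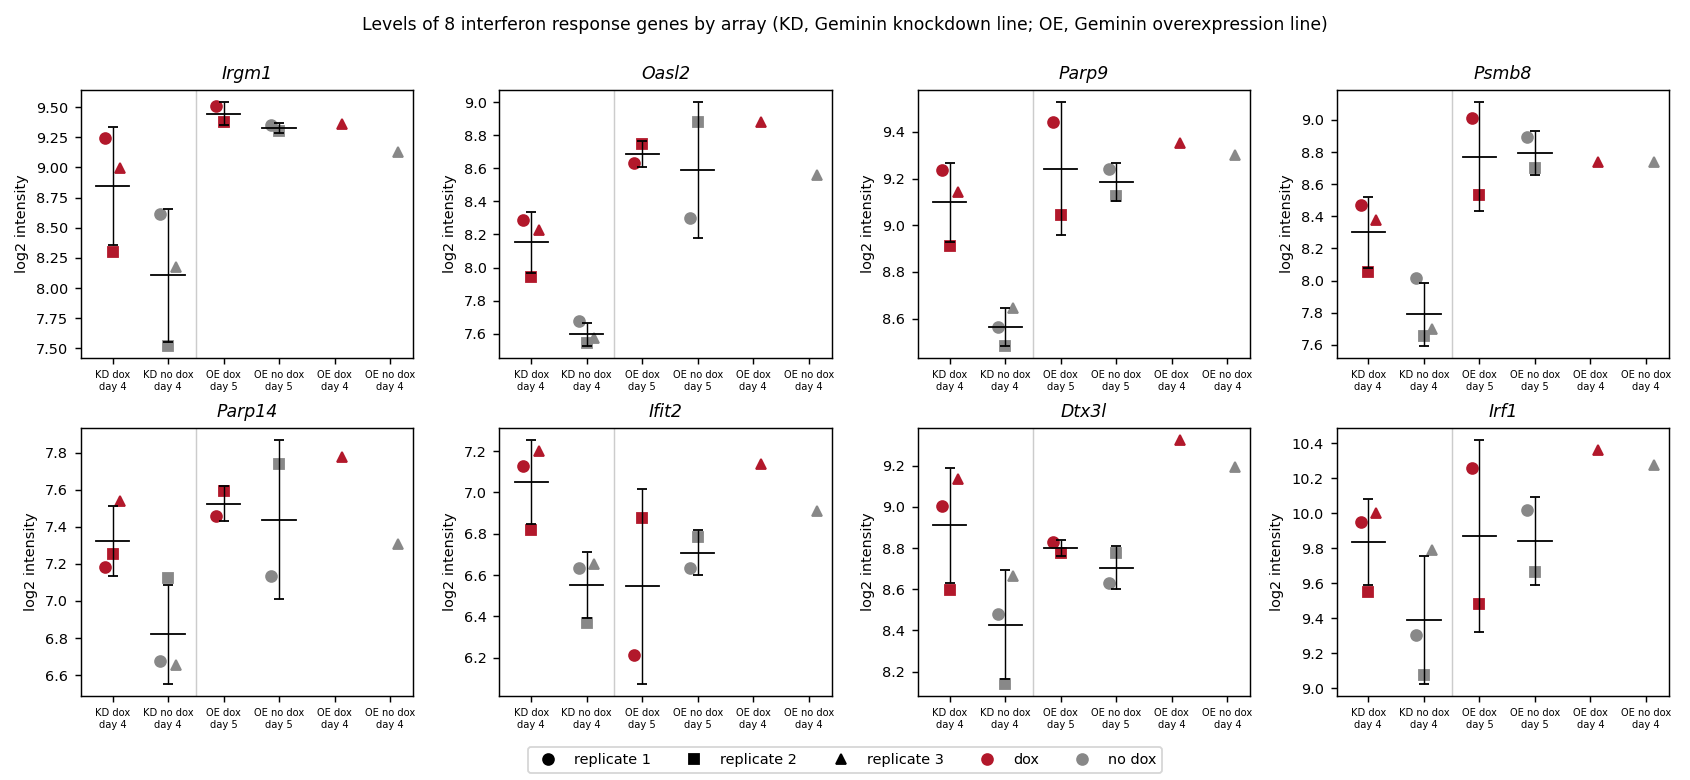
Log2 intensity (y axis, its own range per gene) of 8 interferon response genes in each of the 12 arrays, with dox in red and without in grey, shapes marking replicate numbers. Horizontal lines are group means and bars are SD (groups of 2 or 3 arrays). With dox, knockdown-line arrays of Oasl2, Parp9, Psmb8, Parp14 and Ifit2 lie above every array of that line without dox.

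Taken gene by gene, every knockdown-line array with dox lay above every array without it for 5 of the 31 tested genes (16.1%: Oasl2, Parp14, Parp9, Ifit2 and Psmb8), against 4.97% of all tested genes. The reverse held for 0 of 31, against 3.25%. Grouped by their promoters, the median difference was 0.06 over 13 measured genes with an ISRE core match and 0.08 over 14 without.

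In the overexpression line, where dox ran from day 3, 0 of 31 genes were called, as against 0.00627% of all genes, and 1 of 31 (3.23%) had an unadjusted limma p under 0.05, against 0.934% (0.589% lower). That count was 0 without the day 5 array of replicate 1, with or without dox, 5 without the array of replicate 2 on day 5 that had no dox, and 2 without the knockdown-line array of replicate 2 that had none. Differences were small and mostly upward. Of the 35 measured genes, 30 were higher with dox, and of the 31 tested, 27 (87.1%), against 56.7% of all tested genes. Their median was 0.11, against 0.01 over all tested genes. Genes are not independent replicates, and no test of the shared direction was made.

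Ifi35, an interferon-induced leucine zipper protein, was the gene with the small p. It had 7.32 and 7.21 with dox, against 7.01 and 7.07 without, on day 5, and 7.22 with dox, against 7.03 without, on day 4. Arrays with dox were above those without on each day, and the difference was 0.21 ± 0.08, or 1.16-fold (unadjusted limma p = 0.0238; exact permutation p = 0.167, the smallest this design can give). In the knockdown line it differed by -0.02 ± 0.08. Its mean level was within the range of the receptor genes.

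Oas2 had the largest upward difference of the tested genes. It had 7.38 and 7.11 with dox, against 7.09 and 6.72 without, on day 5, and 7.10 with dox, against 7.02 without, on day 4. Arrays with dox were again above those of their day, by 0.26 ± 0.14. Oas1a went the other way, with 6.71 and 6.83 with dox, against 6.95 and 7.03 without, on day 5, and 6.58 with dox, against 6.84 without, on day 4. All of its arrays with dox lay below those of their day, and the difference was -0.23 ± 0.17, the reverse in sign of its value in the knockdown line. A probe set shared by Oas1a and Oas1g did not reverse, at 0.10 here and 0.06 in the knockdown line. Oas2 and Oas1a had mean levels within the range of the receptor genes, and neither had an unadjusted limma p under 0.05.

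Parp14 had 7.46 and 7.59 with dox, against 7.14 and 7.74 without, on day 5, and 7.78 with dox, against 7.31 without, on day 4 (0.22 ± 0.18). Replicates 1 and 3 were higher with dox and replicate 2 lower. Tap1 had 8.64 and 8.90 with dox, against 8.43 and 8.81 without, on day 5, and 8.60 with dox, against 8.29 without, on day 4 (0.20 ± 0.14), higher with dox in each equal number. Trim30a had 7.68 and 7.38 with dox, against 7.17 and 7.21 without, on day 5, and 6.86 with dox, against 6.94 without, on day 4 (0.20 ± 0.12), so its difference lay in the day 5 arrays. Without the day 5 array of replicate 1 with dox it was 0.07, and the mean level of Trim30a was within the range of the receptor genes.

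The bright genes showed the spread between these arrays. Irf1 had 10.26 and 9.48 with dox, against 10.02 and 9.67 without, on day 5, and 10.36 with dox, against 10.28 without, on day 4 (0.05 ± 0.23). B2m had 11.49 and 11.33 with dox, against 11.36 and 11.20 without, on day 5, and 10.35 with dox, against 10.26 without, on day 4 (0.12 ± 0.17). Ifitm3 had 11.03 and 11.61 with dox, against 10.81 and 11.55 without, on day 5, and 10.94 with dox, against 10.79 without, on day 4 (0.15 ± 0.19). All 3 equal-numbered differences were upward in B2m and Ifitm3. Adar had 9.59 and 10.01 with dox, against 9.50 and 9.96 without, on day 5, and 9.77 with dox, against 9.58 without, on day 4 (0.11 ± 0.14). In Adar, Ifitm3 and Irf1 the replicate number on day 5 made a larger difference than dox did.

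Of the 6 genes that led in the knockdown line, Parp9 (0.06 ± 0.12), Psmb8 (-0.02 ± 0.16) and Ifit2 (-0.03 ± 0.18) were close to 0 here. Parp14 (0.22 ± 0.18), Oasl2 (0.17 ± 0.15) and Irgm1 (0.16 ± 0.27) were above the median of the list. Every array with dox lay above those of its day without it for 7 of 31 tested genes (22.6%: Oas2, Irf9, Cmpk2, Ifi27, Ifi35, Zbp1 and Irgm1), against 5.15% of all genes, and below for Oas1a alone, 1 of 31 (3.23%), against 3.99%. Of these genes, Oas2, Cmpk2, Ifi35 and Oas1a had mean levels within the range of the receptor genes.

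**Figure D3:**
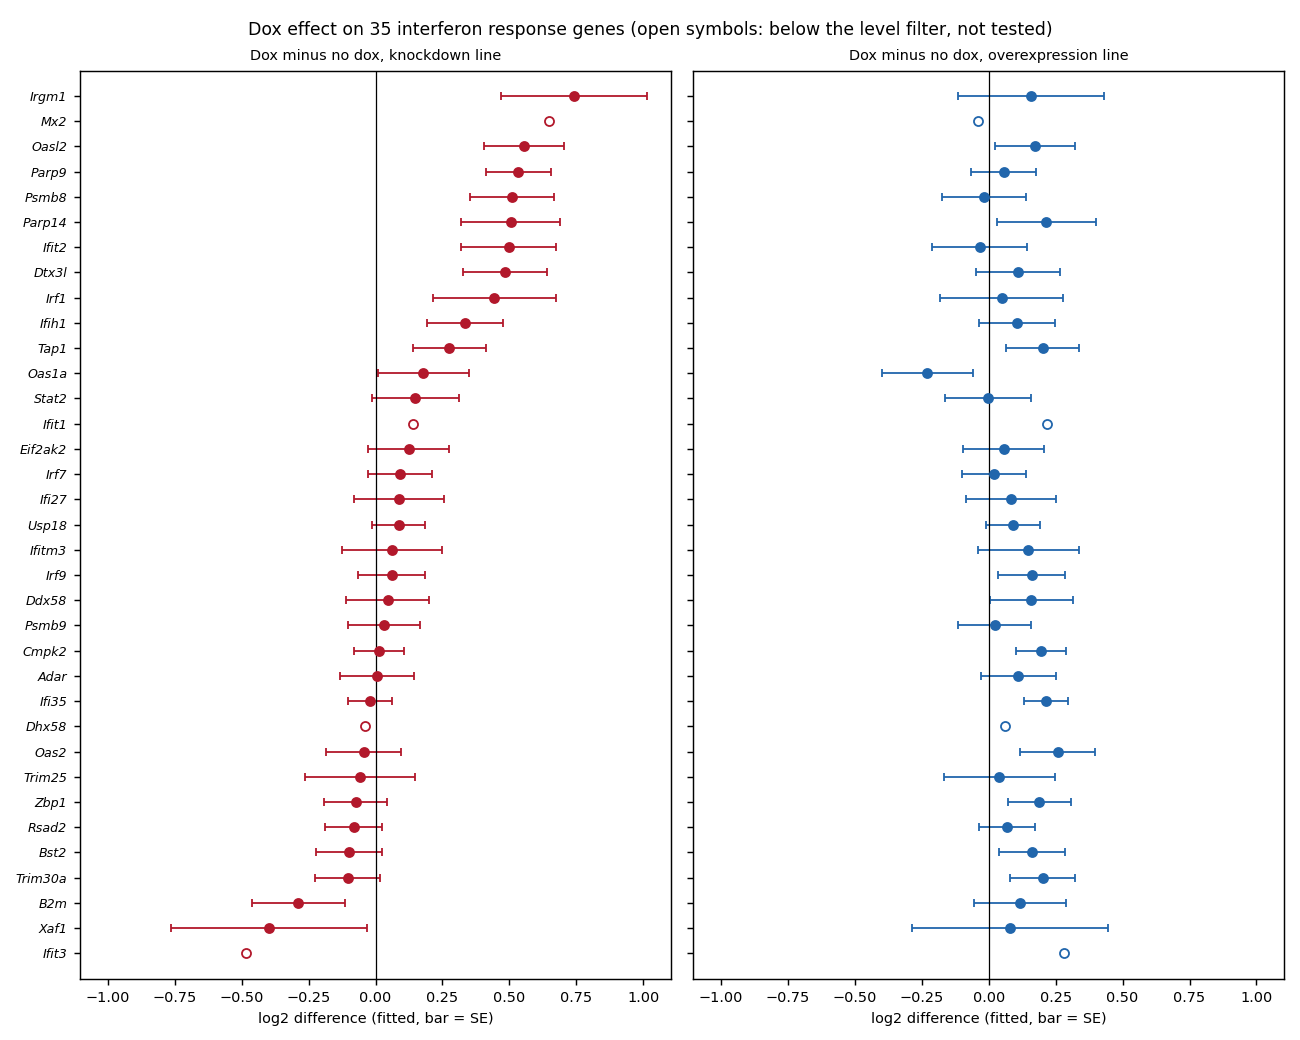
Fitted log2 difference with dox minus without dox (x axis, bars ± SE) for 35 interferon response genes in the knockdown line (left, red) and the overexpression line (right, blue), ordered by the knockdown-line value. Open symbols are the 4 genes below the level filter. Knockdown-line values run from -0.49 to 0.74 and overexpression-line values from -0.23 to 0.28.

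The difference between the lines in their response to dox was tested directly. The lines also differ in construct, in the start of dox (day 0 against day 3) and in the days of collection. These cannot be told apart in this comparison. Of 31 genes 0 were called, as against 0% of all genes, and 2 (6.45%) had an unadjusted limma p under 0.05, against 2.13% (1.13% of all genes upward). These were Parp9 (0.48 ± 0.17, 95% interval 0.09 to 0.86) and Psmb8 (0.53 ± 0.22, interval 0.04 to 1.02), each with the larger value in the knockdown line (limma adjusted p = 1.00). The count of 2 was 8 without the knockdown-line array with dox of replicate 2 and 1 without the knockdown-line array with dox of replicate 3 or the day 5 array with dox of replicate 2. For Irgm1 the interval of the difference, -0.27 to 1.44, was too wide to separate the lines. The value was above 0 for 16 of the 31 genes (51.6%), against 50.1% of all genes, and its median over the 35 was -0.00.

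For the mean of the differences in both lines, 0 of 31 genes were called, where 0.00627% of all genes were, and 7 (22.6%) had an unadjusted limma p under 0.05, against 1.71%, all 7 higher (0.846% of all genes). They were Oasl2 (0.36 ± 0.11), Parp14 (0.36 ± 0.13), Parp9 (0.29 ± 0.09), Dtx3l (0.30 ± 0.11), Irgm1 (0.45 ± 0.19), Psmb8 (0.25 ± 0.11) and Tap1 (0.24 ± 0.10). Leaving out 1 array brought the count to between 2 and 9. It was 2 without either day 4 array of the overexpression line, 3 without the knockdown-line array with dox of replicate 3 or the day 5 array without dox of replicate 1, and 4 without the knockdown-line array with dox of replicate 1. Of the 31 tested genes, 26 were higher on average (83.9%), against 55.4% of all genes, and the median over the 35 was 0.10.

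Set out by equal replicate number, the median over the 35 genes was above 0 in each of the 6 differences. In the knockdown line it was 0.13, 0.11 and 0.20 for replicates 1, 2 and 3, with 23, 22 and 24 genes higher with dox. In the overexpression line it was 0.19 and 0.07 for replicates 1 and 2 on day 5 and 0.09 for replicate 3 on day 4, with 31, 22 and 26 genes higher. Medians over all tested genes lay between 0.00 and 0.03. Of the 31 tested genes, 11 (35.5%) were higher in all 3 knockdown-line differences, against 19.5% of all genes, and 12 (38.7%) in all 3 of the overexpression line, against 16.6%. Irgm1 and Tap1 were higher in all 6, which makes 2 of 31 (6.45%), against 2.88%, and 0 were lower in all 6, against 0.915%. The labels do not tie arrays of equal number to a shared culture.

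**Figure D4:**
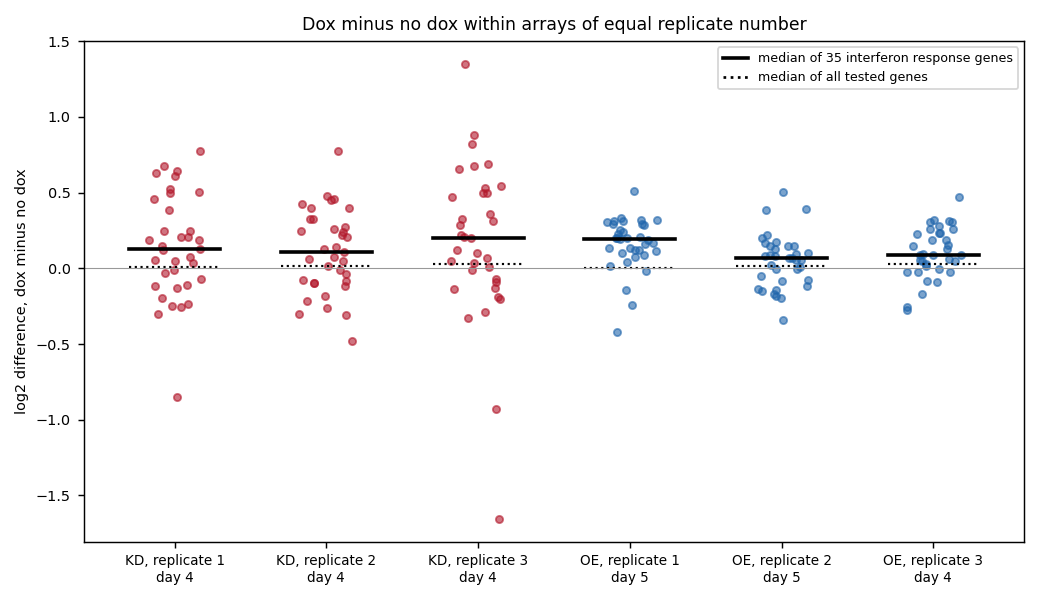
Log2 difference with dox minus without dox (y axis) between arrays of equal replicate number, 1 point per interferon response gene (35 per column), knockdown line in red and overexpression line in blue. Solid bars, the medians of these genes, lie between 0.07 and 0.20, above the dotted medians of all tested genes, and the knockdown-line points spread wider.

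Larger differences lay between the lines themselves. On day 4 without dox, 1 of 31 genes was called between the knockdown and the overexpression line (3.23%), where 0.307% of all genes were. At an unadjusted limma p under 0.05 there were 12 (38.7%), against 11.6%. Of the 12, 11 were lower in the knockdown line (35.5%), where 6.02% of all genes were, and 1 (Bst2) was higher, where 5.6% of all genes were. Whatever the p, 13 of 31 were higher in the knockdown line (41.9%), against 53.1% of all genes. On day 4 the overexpression line is replicate 3 alone, with 1 array with and 1 without dox, so line cannot be told apart from that replicate. Both arrays set its fitted baseline, together with the dox effect of that line, which the day 5 arrays help to set. The comparison of lines also shares its knockdown-line arrays with the comparison of dox in the knockdown line, so the values are given beside each other only.

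Bst2 was the called gene, at a higher level in the knockdown than in the overexpression line. It had 9.45, 9.76 and 9.60 with dox and 9.68, 9.84 and 9.59 without dox in the knockdown line, against 9.10 and 8.99 with and 8.78 and 9.13 without dox on day 5, and 9.04 with and 8.73 without dox on day 4, in the overexpression line. All 6 knockdown-line arrays lay above all 6 of the overexpression line, and the difference was 0.90 ± 0.15, or 1.87-fold (limma adjusted p = 0.0449). That call was lost (adjusted p = 0.0512 to 0.897) without 1 of 10 of the 12 arrays, the exceptions being replicate 2 with dox in the knockdown line and replicate 2 without dox on day 5. The difference itself kept within 0.75 to 0.97.

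The genes lower in the knockdown line were Irgm1 (-1.06 ± 0.34), Oasl2 (-1.04 ± 0.18; limma adjusted p = 0.0527), Psmb8 (-0.96 ± 0.19), Irf1 (-0.91 ± 0.28), Dtx3l (-0.78 ± 0.19), Parp9 (-0.73 ± 0.15), Ifih1 (-0.71 ± 0.17), Parp14 (-0.62 ± 0.23), Usp18 (-0.60 ± 0.12), Ifit2 (-0.49 ± 0.22) and Tap1 (-0.46 ± 0.17). The dimmer probe set of Irf1 differed by -0.22. Oasl2, at 7.94 to 8.29 with and 7.54 to 7.68 without dox in the knockdown line, lay below the 8.30 to 8.88 of all overexpression-line arrays. All 6 knockdown-line arrays, with and without dox, lay below all 6 of the overexpression line for 7 of 31 genes (22.6%: Oasl2, Usp18, Cmpk2, Ifih1, Ifi35, Ifitm3 and Psmb8), against 3.15% of all genes, and above for Bst2 alone, 1 of 31 (3.23%), against 1.82%. The knockdown line has day 4 only and the overexpression line also day 5, so these counts mix line with day. On day 4 the fitted differences were -0.11 ± 0.11 for Cmpk2, -0.09 ± 0.10 for Ifi35 and -0.34 ± 0.23 for Ifitm3, the others being listed above. All knockdown-line arrays of Usp18 were under the level filter (6.46), which it passed through its overexpression-line arrays. Usp18 therefore adds no support to either count of genes lower in the knockdown line. Usp18, Cmpk2 and Ifi35 had mean levels within the range of the receptor genes.

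Day 5 was set against day 4 in the overexpression line. Day 4 is replicate 3 alone, so day and replicate cannot be told apart. Of 31 genes, 2 were called (6.45%), where 0.558% of all genes were, and both rose. At an unadjusted limma p under 0.05 there were 5 (16.1%), against 14.2%, a share near the background. That count was 2 without the day 4 array with dox, 3 without the day 4 array without dox and 8 without the day 5 array with dox of replicate 1. The 2 calls were 0 without 1 of 6 arrays (either array of day 4, the day 5 arrays of replicate 2, the day 5 array without dox of replicate 1, or the knockdown-line array with dox of replicate 3) and 1 without the day 5 array with dox of replicate 1 or the knockdown-line array with dox of replicate 2.

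Usp18 had 7.74 and 7.63 with and 7.70 and 7.69 without dox on day 5, against 7.07 with and 6.78 without dox on day 4. All 4 arrays of day 5 lay above both of day 4, and the difference was 0.77 ± 0.11, or 1.70-fold (limma adjusted p = 0.0212; fitted on the overexpression line by itself, 0.0719). B2m, whose arrays are listed above, also had all 4 arrays of day 5 above both of day 4, with a difference of 1.04 ± 0.18, or 2.05-fold (limma adjusted p = 0.0430). In the knockdown line on day 4, Usp18 lay at 6.33 to 6.42 with and 6.18 to 6.44 without dox, below every overexpression-line array. Those values are under the level filter (6.46), which Usp18 passed through its overexpression-line arrays. The mean of Usp18 over all arrays was within the range of the receptor genes. Trim30a (0.46 ± 0.13) and Ddx58 (0.41 ± 0.16) were higher on day 5 and Dtx3l lower (-0.51 ± 0.17) at an unadjusted limma p under 0.05. Of the 35 genes, 26 were higher on day 5, with a median of 0.14, against -0.00 over all tested genes. Of the 31 tested, 23 were higher (74.2%), against 49.8%. Among cell type markers, those of endothelium were higher on day 5 in 9 of 9 cases (median 0.37), of fibroblasts in 11 of 14 (median 0.23) and of visceral endoderm in 8 of 10 (median 0.60). Pluripotency genes were lower in 7 of 10, Pou5f1 being called (-0.59 ± 0.10; limma adjusted p = 0.0383). The part of these cell types in the day differences was not tested.

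**Figure D5:**
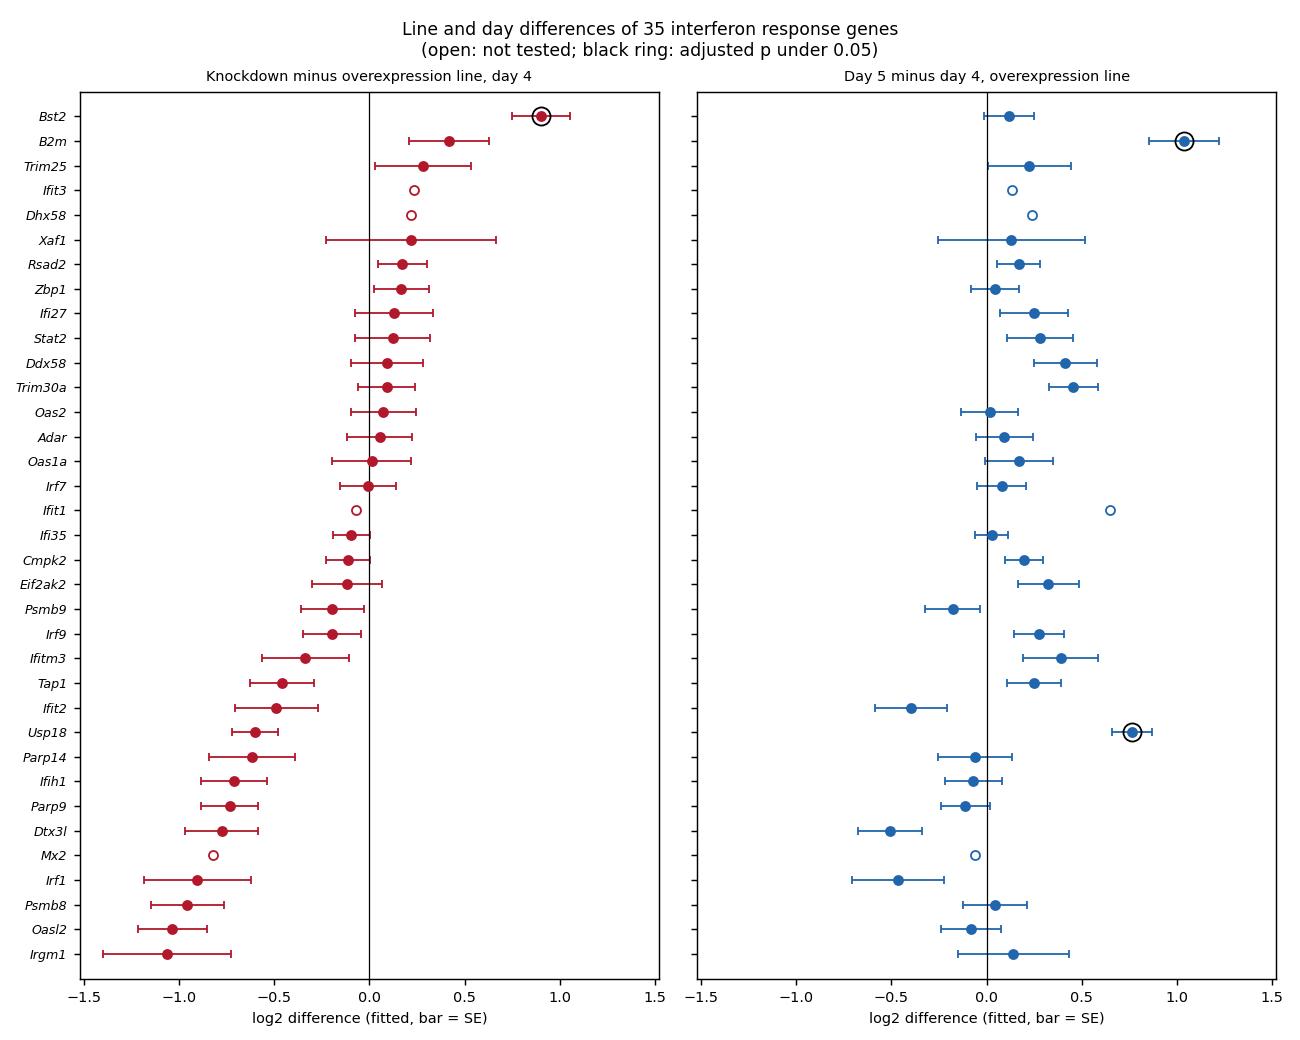
Fitted log2 differences (x axis, bars ± SE) of 35 interferon response genes, knockdown minus overexpression line on day 4 without dox (left, red) and day 5 minus day 4 in the overexpression line (right, blue), in the order of the left panel. Open symbols were not tested and black rings mark genes called by limma: Bst2 between lines, at 0.90, and B2m and Usp18 between days, at 1.04 and 0.77.

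Related genes outside the list were examined through lists chosen with earlier results of these data known. Of 27 measured interferon ligands, receptors and signal transducers, 13 were higher and 14 lower with dox in the knockdown line, and 17 were higher in the overexpression line, with 0 called in either. The ligand gene Ifne, epsilon interferon, had an unadjusted limma p under 0.05, and it was lower with dox in the knockdown line (-0.34 ± 0.10). Over all tested genes, 52.7% were higher with dox in the knockdown line and 56.7% in the overexpression line. Of 40 other interferon-stimulated genes measured, 23 were higher with dox in the knockdown line and 30 in the overexpression line, again with 0 called. At an unadjusted p under 0.05, 7 of the 30 tested were higher and 1 lower in the knockdown line, against 2.17% and 1.59% of all genes. In the overexpression line 0 were higher or lower, against 0.345% and 0.589%. Ifitm1, a relative of Ifitm3, rose on day 5 relative to day 4 in the overexpression line (1.11 ± 0.11; limma adjusted p = 0.0115).

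Gbp3, a guanylate-binding protein, had 8.05, 7.77 and 8.15 with dox, against 7.45, 7.25 and 7.35 without, in the knockdown line. The groups did not overlap, and the difference was 0.64 ± 0.12 (limma adjusted p = 0.965). Between lines it was called and lower in the knockdown line, with a difference of -1.34 ± 0.15 (limma adjusted p = 0.0111). Parp10 and Parp12, ADP-ribosyltransferases like Parp14, were higher with dox in the knockdown line by 0.52 ± 0.16 and 0.41 ± 0.13. Of 12 other antigen presentation genes, 10 were higher with dox in the knockdown line and 9 in the overexpression line, among them the peptide-trimming enzyme Erap1 (0.64 ± 0.25) and the immunoproteasome subunit Psmb10 (0.46 ± 0.15) in the knockdown line, and 11 of 12 were lower in the knockdown than in the overexpression line. Of 16 genes that handle double-stranded RNA and microRNAs, 10 and 13 were higher with dox in the knockdown and overexpression lines. For both lists, the shares over all tested genes were 52.7% and 56.7%. Ago3, an Argonaute protein, differed by 0.31 ± 0.10 in the knockdown line.

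Markers of differentiation also differed. The mean level of 7 primitive streak genes was 9.30, 7.83 and 8.91 in knockdown-line arrays with dox, against 8.30, 7.24 and 8.52 without, and 9.26 to 10.06 in the overexpression line. All 7 were higher with dox in the knockdown line (median 0.68) and all 7 lower in the knockdown than in the overexpression line (median -1.98), with Evx1 (-2.64 ± 0.41; limma adjusted p = 0.0321) and Mesp1 (-1.62 ± 0.20; adjusted p = 0.0171) called. The mean of these primitive streak genes was lowest for replicate 2 in each knockdown-line group. The same held for Irgm1, Oasl2, Parp9, Psmb8, Ifit2, Dtx3l, Ifih1 and Irf1, among others, and not for Parp14. Kdr, a receptor of endothelium and early mesoderm, was also called between lines, lower in the knockdown line (-2.43 ± 0.34; limma adjusted p = 0.0203). Pluripotency genes were lower with dox in 7 of 10 cases in the knockdown line (median -0.11) and higher in 10 of 10 in the overexpression line (median 0.12). Visceral endoderm markers were lower with dox in 9 of 10 cases in the knockdown line (median -0.30) and in 6 of 10 in the overexpression line (median -0.08). Endothelial markers were lower with dox in 6 of 9 cases in each line. The part of differentiation in the differences of the interferon response genes was not tested.

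Of the markers of blood and immune cells, 11 of 14 had a mean level at or below that of 95% of the receptor genes, and the list mean was 6.81 to 6.95 with dox, against 6.85 to 7.09 without, in the knockdown line. Of the 14, 4 were higher and 10 lower with dox in that line (median -0.04). Ptprc (CD45), the common leukocyte antigen, had 7.11, 7.19 and 7.25 with dox, against 6.67, 6.97 and 6.75 without, in the knockdown line (0.38 ± 0.13, at an unadjusted limma p under 0.05). Its groups did not overlap, and it was lower in the knockdown than in the overexpression line (-0.54 ± 0.16). Its knockdown-line arrays without dox all lay below the 95th percentile of the receptor genes (7.06). The lysosomal proteins Cd68 and Laptm5 stood above the 95th percentile of the receptor genes in all arrays. Cd68 had 8.56, 8.82 and 8.63 with dox, against 9.09, 9.60 and 8.44 without, and Laptm5 7.27, 8.70 and 7.97 with dox, against 8.30, 9.51 and 7.61 without, in the knockdown line. For both, the groups overlapped and replicate 2 was highest in each. The part of blood or immune cells in the results was not tested. Markers of fibroblasts, which could remain from the feeder layer, averaged 7.74 to 7.78 with dox, against 7.66 to 7.90 without, in the knockdown line, and 7.89 to 8.22 over the overexpression line.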

How the data were processed

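Biotin-labelled target made from the total RNA of each sample was read on Affymetrix arrays (Mouse Gene 1.0 ST), per the labels. The authors deposited 1 linear intensity per probe set and array. How these were summarised, background-corrected and normalized is not given in the sources used here. Intensities were converted to log2(intensity + 1). Array medians spanned 0.324 on that scale, above the limit of 0.1, and quantile normalization was applied over all 35512 probe sets. Differences on this scale understate those of dim genes.

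One limma 3.58.1 model (lmFit and eBayes, R 4.3.3) covered all 12 arrays, with a baseline per line and day, 1 dox effect per line and no replicate block, leaving 7 residual and 3.50 prior degrees of freedom. Steps were tested on simulated data. Exact two-sided permutation tests permuted dox labels within each line and day. Precision is limited by how few arrays there are.

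The genes and lists were chosen with earlier results of these data known. Values by array are given for the 6 largest differences with dox in each line and the 4 brightest genes. From other lists, up to 4 genes with the largest differences with dox, or called genes, are named. Other genes given in full, Usp18 and Bst2 among them, were chosen after their values were seen. Alternatives covered normalization, pseudocount, filter, probe set rule, block, weights, prior, subsets and left-out arrays.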

Additional observations from a re-analysis of the deposited data

How the results depend on the processing

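With dox, 0 genes of the list were called in either line, in their difference or in their mean under every alternative run, 30 in all. Medians over the 35 genes moved by more than the spread between arrays (0.07) in 2 cases, both with no further normalization. The knockdown-line median became 0.000379 with 18 of 35 genes higher, the median of all genes being -0.04, and the median of the difference between lines became -0.11. The unadjusted count of 8 in the knockdown line was 12 with a replicate block, 5 with the filter at the 40th percentile, 3 without both arrays of replicate 3 and 4 without both of replicate 1. Gmnn in the overexpression line was called with array weights (0.71; limma adjusted p = 0.00929), and Trim30a there turned to -0.0103 with them. With array weights the unadjusted count in the overexpression line was 11 of 31, against 1, and over all genes 3482, against 149, with 201 called, against 1.

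Genes called between days (2) numbered 1 with arrays scaled to one median, with no filter, with the filter at the 40th percentile and with the overexpression line alone, 5 with a replicate block, 8 with array weights, 0 without both arrays of replicate 2 of that line and 0 to 2 without 1 array. Genes called between lines (1) numbered 0 with no further normalization, with arrays scaled to one median and with no filter, 2 with a pseudocount of 16, the filter at the 40th percentile or a trend in the prior, and 10 with a replicate block or array weights. They numbered 0 without both arrays of replicate 1, 2 or 3 of the knockdown line or of replicate 1 of the overexpression line, 2 without both of replicate 2 of the overexpression line, and 0 to 2 without 1 array. The cause was not tested.

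Arrays of equal number are not tied by the labels. The main model held no replicate block. Deviations from group means correlated at 0.60, 0.44 and 0.05 for replicates 1, 2 and 3 of the knockdown line, values that give no reason to leave the block out. All 6 knockdown-line arrays correlated best with their own number, a hint from the data and not from the design. With the replicate block, unadjusted counts were 12, 4, 11 and 10 (knockdown line, overexpression line, difference, mean), against 8, 1, 2 and 7 without it, and over all genes 1941, 572, 1384 and 1047, against 599, 149, 340 and 273. The day 5 pair of the overexpression line has 1 correlation (0.79). Signal near that of the receptor genes limits 13 of the 35 genes.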
